A study of Mus musculus with 10 samples.

Results

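The axonemal genes described here are those that encode dynein chains, dynein assembly factors, radial spoke proteins, tektins, proteins of the nexin-dynein regulatory complex and cilia and flagella associated proteins (CFAP). They were chosen by symbol alone, as the genes whose symbol begins with Dnah, Dnai, Dnal, Dnaaf, Rsph, Tekt, Drc or Cfap, which gave 70 of the 15507 genes listed. They comprised 14 Dnah, 2 Dnai, 3 Dnal, 5 Dnaaf, 6 Rsph, 5 Tekt, 3 Drc and 32 Cfap genes, and all 70 passed the filter on low counts.

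Germ cells of mice aged 45 days were compared between 5 wild type (WT) and 5 homozygous GRTH-KI (KI) animals, with 1 RNA-Seq library per mouse. The KI allele is a human GRTH gene bearing the R242H mutation, GRTH being the product of mouse Ddx25, and the strain was not stated. The enzyme-dispersed preparation holds spermatogonia, spermatocytes and spermatids together. Reads assigned to genes numbered 13323024 to 16422347 per WT library and 12722086 to 15500582 per KI library, and values are given as the normalized counts that the authors deposited.

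The axoneme is the microtubule core of cilia and of the sperm tail, in which dynein arms on the outer doublets pull on the neighbouring doublet while radial spokes, the central pair and the nexin-dynein regulatory complex time the beat. Outer arms set beat frequency and power, inner arms shape the bend, and tektins and other proteins inside the doublets stiffen the tubules. In the testis many of these genes are already transcribed in spermatocytes and round spermatids, ahead of tail assembly.

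Ddx25, the targeted gene (chr9:35541848-35558470, mm10), was examined first. Its normalized counts were 7615, 7782, 5198, 11101 and 9458 in WT libraries 1 to 5 and 146, 194, 161, 2.88 and 1.84 in KI libraries 1 to 5. All KI libraries lay far below all WT libraries, and KI libraries 1 to 3 kept a low level that KI libraries 4 and 5 did not have. The log2 fold change was −7.84 (SE 1.03, adjusted p = 5.63e-05 by limma). As the KI allele is a human GRTH gene and reads were aligned to the mouse genome, these counts may miss its transcripts. They are thus no measure of GRTH expression from the KI allele. The paper describes KI mice as lacking the phosphorylated form of GRTH.

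Most axonemal genes were not called as changed in KI germ cells, and a missing call is no test of an equal level. In such a mixture of cells, fewer cells of a type and less RNA per cell cannot be told apart. Genes were called at a limma p-value adjusted by Benjamini-Hochberg over the 15389 genes tested of under 0.05 with a change of at least 1.5-fold, and fold changes are on the log2(normalized count + 1) scale, KI against WT. Of the 70 axonemal genes 4 were called, against 14.4% of all genes tested. Cfap126 and Cfap97d1 fell (2 of 70, with 8.22% of all genes down), and Dnah5 and Dnah11 rose (2 of 70, with 6.13% of all genes up). At the adjusted p alone 6 axonemal genes were lower and 3 higher, against 13.3% and 9.65% of all genes. At an unadjusted p under 0.05, 7 were lower and 4 higher, against 18.4% and 16.2%. Every KI library lay below every WT library for 4 axonemal genes (10.9% of all genes) and above for 1 (6.80%), together 5 of 70 beside 17.7% of all genes. The same 4 genes were called by edgeR, by DESeq2 and with the replicate number as a block, which called 15.7% of all genes, while Cfap126 was lost when scaled to library totals (−0.38) or to spermatocyte markers (−0.45).

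The median log2 fold change of the 70 genes was −0.03, beside 0.03 over all genes tested, and 41 of the 70 were negative (7140 of all 15389). Leaving out a library moved it from −0.10 (without KI library 5) to 0.01 (without KI library 3). The direction of such a median depends on the scaling, because scaling to library totals moved the median of all genes to 0.25 and scaling to spermatocyte markers moved it to 0.18, with medians of 0.20 and 0.13 for the axonemal genes. Relative to the all-gene median, the axonemal median stood at −0.06 under each of these scalings. That difference can hardly change, because a scaling shifts all genes of a library alike. Fold changes ran from −0.97 for Cfap97d1 to 1.57 for Dnah11.

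**Figure D1:**
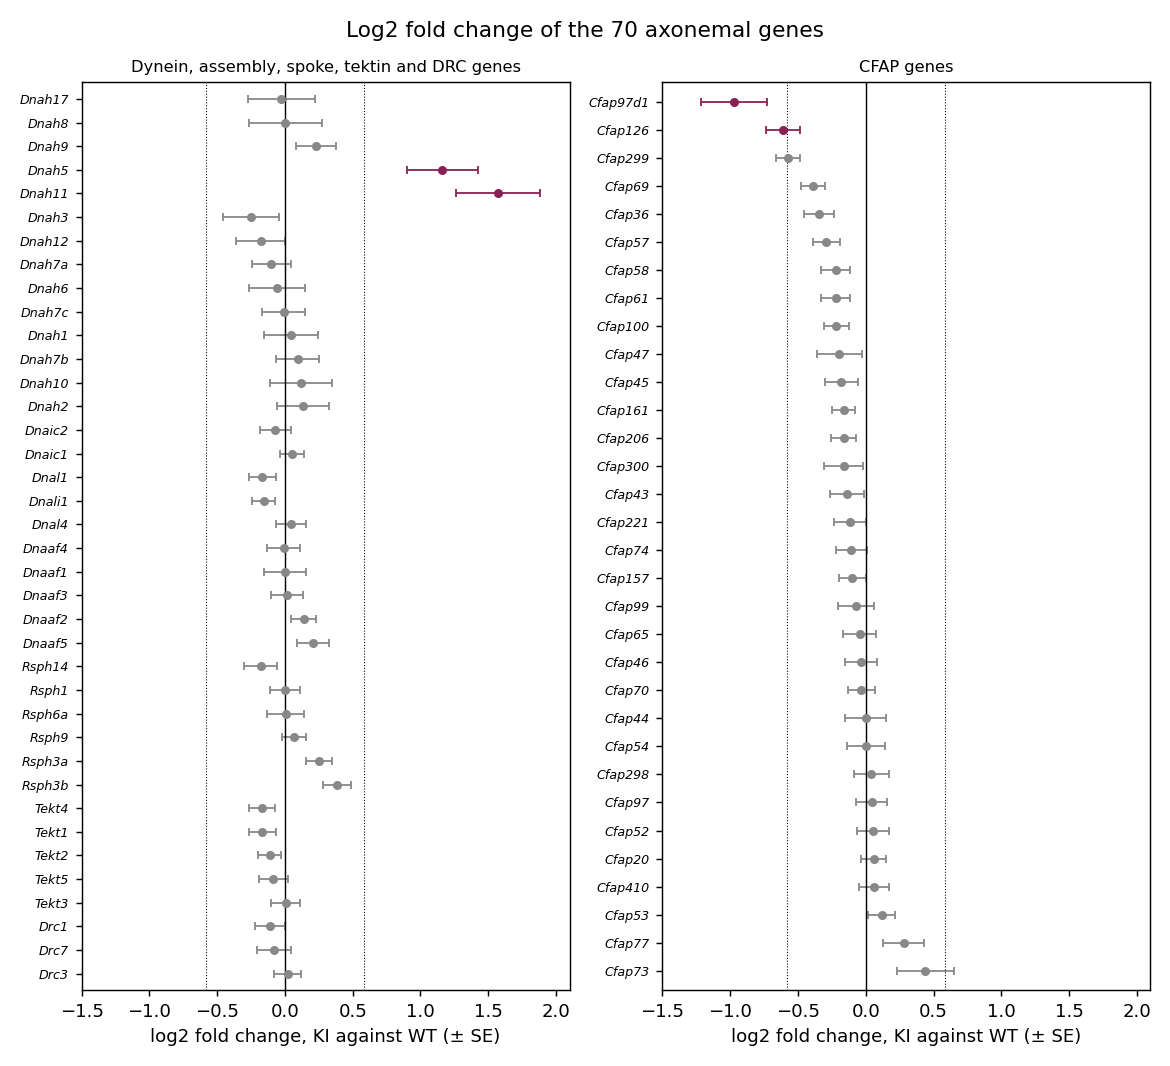
Log2 fold change of KI against WT (horizontal axis) for each of the 70 axonemal genes, with dynein, assembly factor, spoke, tektin and regulatory complex genes at left and CFAP genes at right. Bars give the SE, dotted lines mark a 1.5-fold change, and the coloured points are the 4 called genes, with Dnah5 at 1.16, Dnah11 at 1.57, Cfap126 at −0.61 and Cfap97d1 at −0.97.

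Outer arm heavy chains, the motor subunits of the outer dynein arms, divided by level. Per kilobase of exon, the WT means in normalized counts were 861 for Dnah8 and 636 for Dnah17, the heavy chains of sperm, and 6.38 for Dnah9, 2.73 for Dnah5 and 0.737 for Dnah11, which are best known from airway and other motile cilia. The 2 called genes were thus the lowest of the 5 by level per kilobase.

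Dnah5 (chr15:28203766-28472045) had normalized counts of 31.4, 38.2, 32.6, 45.1 and 65.9 in WT libraries 1 to 5 and 85.8, 63.4, 69.0, 120 and 155 in KI libraries 1 to 5. KI libraries 4 and 5 were the highest, and the groups overlapped only where WT library 5 exceeded KI library 2. Its mean rose from 42.6 ± 14.1 to 98.6 ± 38.3 (SD, n = 5 per group), a log2 fold change of 1.16 (SE 0.26, adjusted p = 0.00416 by limma).

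Dnah11 (chr12:117877982-118199043), whose product works in the outer arms of airway cilia, had 8.37, 10.4, 16.9, 11.03 and 6.59 in WT and 36.3, 35.6, 16.5, 32.7 and 49.7 in KI. KI library 3 was low and fell just under WT library 3, while the other 4 KI libraries lay above all WT libraries. The means were 10.7 ± 3.91 and 34.2 ± 11.9, with a log2 fold change of 1.57 (SE 0.31, adjusted p = 0.0018 by limma). These values rest on 7 to 54 reads per library, and those of Dnah5 on 27 to 168. Dnah11 also overlaps Cdca7l on the opposite strand, and as the counting was not stated to use strand, reads of the 2 genes may have been mixed. Cdca7l itself had 282 ± 17.4 in WT and 267 ± 31.5 in KI.

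Dnah8 (chr17:30626936-30875264), the most abundant outer arm heavy chain per kilobase, had 23389, 22141, 14675, 25604 and 29668 in WT and 16312, 17313, 15472, 30576 and 43893 in KI. KI library 5 was the highest of all 10, KI libraries 1 to 3 lay near the lowest WT library, and the groups overlapped. Its log2 fold change was 0.00 (SE 0.27, adjusted p = 0.993 by limma). Dnah17 had −0.03 (SE 0.25) with the same order of libraries within KI at the top, 18662 in library 5 and 13110 in library 4. Dnah9 had 102 ± 21.8 in WT and 118 ± 9.31 in KI, a difference within the spread between libraries.

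**Figure D2:**
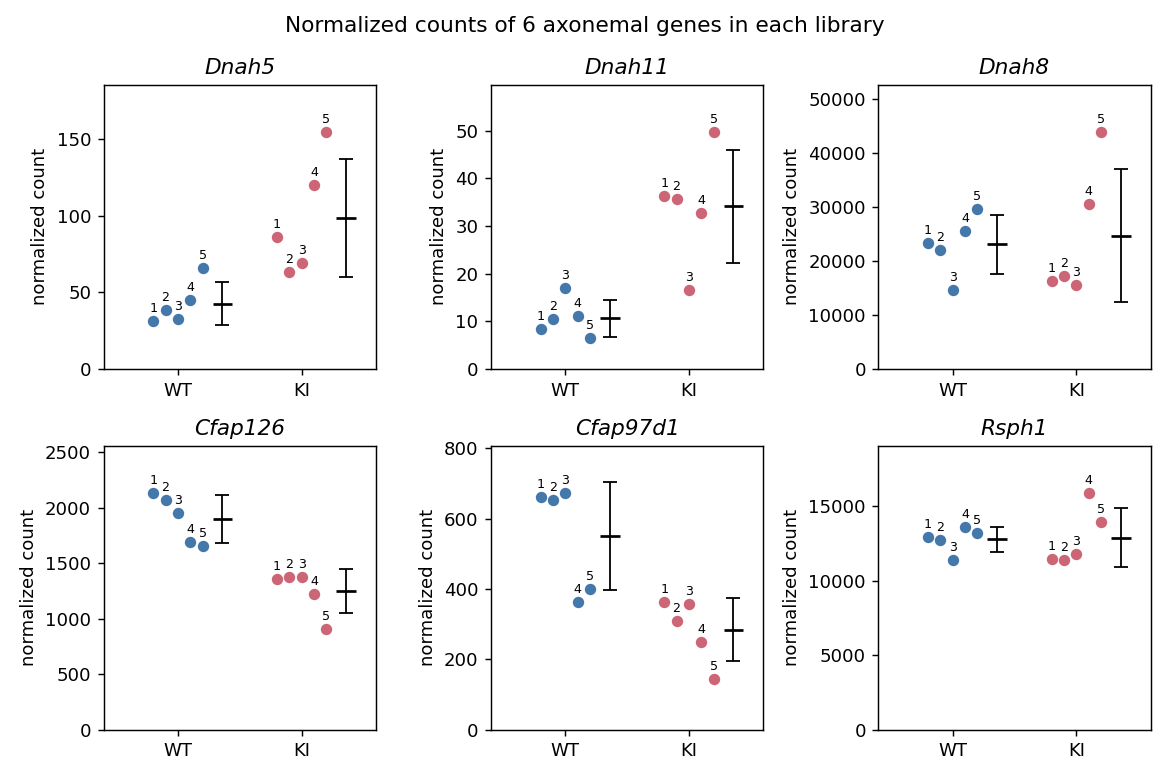
Normalized count (vertical axis) of 6 axonemal genes in each WT and KI library, numbered by library, with the mean and SD of each group beside the points. Dnah5 and Dnah11 are higher and Cfap126 and Cfap97d1 lower in KI, while Dnah8 and Rsph1 overlap between the groups, with KI library 5 of Dnah8 at 43893.

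Inner arm heavy chains, which drive the bending of the tail, included 0 called genes among 9 by limma, 0 at an unadjusted p under 0.05, and 0 by edgeR and by DESeq2. Their log2 fold changes ran from −0.25 (Dnah3) to 0.13 (Dnah2), with a median of −0.01, which was 0.22 when scaled to library totals and 0.15 when scaled to spermatocyte markers. Dnah1 (chr14:31260375-31323896), a heavy chain needed for a normal sperm tail and the highest of the 9 per kilobase, had 4242, 4424, 2901, 4509 and 5041 in WT and 3382, 3562, 3330, 5211 and 6958 in KI. KI libraries 4 and 5 exceeded all WT libraries, KI libraries 1 to 3 lay below 4 of them, and the log2 fold change was 0.05 (SE 0.20, adjusted p = 0.898 by limma). Dnah7a, Dnah7b and Dnah7c are near-identical copies on chromosome 1, between which the counting could split reads, and their values of −0.10, 0.09 and −0.01 are uncertain one by one.

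Intermediate and light chains, which anchor and regulate the motors, had 0 called among 5 by limma, 0 at an unadjusted p under 0.05, and 0 by edgeR and by DESeq2. Dnaic1 (chr4:41569794-41638158), an intermediate chain of the outer arm, had 1807, 1889, 1847, 1672 and 1520 in WT and 1760, 1803, 1676, 2055 and 1769 in KI. KI library 4 was the highest value and WT library 5 the lowest, so the groups overlapped, with a log2 fold change of 0.05 (SE 0.09, adjusted p = 0.72 by limma). Dnali1 (chr4:125055339-125065657), a light intermediate chain of inner arms, had 3210, 3547, 3318, 3192 and 3200 in WT and 2784, 2835, 2922, 3467 and 2813 in KI. All KI libraries except library 4 lay below all WT libraries, and the log2 fold change was −0.16 (SE 0.09, adjusted p = 0.22 by limma), which became 0.07 when scaled to library totals. Dnaic1 and Dnali1 overlap Enho and Gnl2 on the opposite strand. The other values were −0.07 for Dnaic2, −0.17 for Dnal1 and 0.04 for Dnal4.

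Assembly factors fold and build dynein arms in the cytoplasm before they enter the tail. The 5 Dnaaf genes had 0 called by limma, 0 at an unadjusted p under 0.05, and 0 by edgeR and by DESeq2, and their log2 fold changes ran from −0.01 (Dnaaf4) to 0.21 (Dnaaf5). Dnaaf1 (chr8:119575235-119598454), the highest per kilobase at 7419 ± 1076 in WT, had 17149, 19896, 19514, 24265 and 23824 in WT and 16325, 19061, 18013, 27351 and 25105 in KI. Libraries 4 and 5 were the high ones in both genotypes and the groups overlapped, with a log2 fold change of 0.00 (SE 0.15) whose sign turned with the scaling. Dnaaf1 overlaps Taf1c on the opposite strand.

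Radial spoke genes held the highest level per kilobase of all 70, that of Rsph1 at 9307 ± 606 in WT. Rsph1 (chr17:31255020-31277296), a spoke head protein, had 12928, 12755, 11392, 13592 and 13180 in WT and 11445, 11361, 11792, 15876 and 13912 in KI. KI libraries 4 and 5 were above all WT libraries and KI libraries 1 to 3 near the lowest of them, and the log2 fold change was 0.00 (SE 0.11, adjusted p = 0.994 by limma). None of the 6 Rsph genes was called (limma 0, edgeR 0, DESeq2 0), and at an unadjusted p under 0.05 there were 0 lower and 2 higher.

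Those 2 were Rsph3a and Rsph3b, near-identical copies on chromosome 17 of a spoke protein that anchors protein kinase A, between which the counting could split reads. Rsph3b had 3511, 4237, 4266, 3528 and 3223 in WT and 4513, 5075, 4800, 5450 and 4576 in KI. Every KI library lay above every WT library, and the log2 fold change was 0.39 (SE 0.10, adjusted p = 0.0116 by limma). When scaled to library totals it passed 1.5-fold (0.61). Rsph3a had 0.25 (SE 0.10, adjusted p = 0.0783 by limma), from 7858 ± 708 in WT to 9333 ± 780 in KI. It also overlaps Rnaset2b on the same strand, so reads of these genes may have been mixed. Rnaset2b had 226 ± 46.7 in WT and 272 ± 94.0 in KI.

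Tektins form filaments along the doublets, and the regulatory complex links neighbouring doublets. None of the 5 Tekt or 3 Drc genes was called by limma, edgeR or DESeq2 (0 each), and 0 had an unadjusted p under 0.05. Tekt1 (chr11:72344717-72362442) had 6630, 6865, 6262, 6004 and 5405 in WT and 5348, 5931, 5558, 6163 and 4793 in KI. KI library 5 was the lowest of the 10 and KI libraries 2 to 4 lay within the WT range, with a log2 fold change of −0.17 (SE 0.10, adjusted p = 0.253 by limma). The median of the tektins was −0.11 and turned to 0.12 when scaled to library totals and 0.05 when scaled to spermatocyte markers.

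Drc1 (chr5:30281393-30366695), a core subunit of the regulatory complex, had 3019, 3235, 2632, 2416 and 2426 in WT and 2288, 2415, 2195, 2966 and 2863 in KI. Libraries 1 to 3 were higher in WT and libraries 4 and 5 higher in KI, and over all 10 libraries the log2 fold change was −0.11 (SE 0.11, adjusted p = 0.549 by limma). It was −0.36 in libraries 1 to 3 alone (adjusted p = 0.00344 by limma) and 0.27 in libraries 4 and 5 alone (adjusted p = 0.238 by limma). Drc7 had −0.30 in libraries 1 to 3 and 0.25 in libraries 4 and 5.

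Among the 32 CFAP genes limma called 2 down, beside 8.22% of all genes, and 0 up, with 0 up by edgeR and by DESeq2, while at an unadjusted p under 0.05 there were 7 lower, beside 18.4% of all genes, and 0 higher. Their median of −0.11 turned to 0.12 when scaled to library totals and to 0.05 when scaled to spermatocyte markers. Taken relative to the all-gene median it was −0.14, a difference that scaling can hardly change.

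Cfap126 (chr1:171121661-171126967), also known as Flattop, is a protein of the inside of the doublets that is known for positioning basal bodies in multiciliated cells. It had 2133, 2066, 1951, 1687 and 1655 in WT and 1362, 1375, 1379, 1223 and 911 in KI. All KI libraries were below all WT libraries, KI library 5 was the lowest, and libraries 4 and 5 were low within both genotypes. The mean fell from 1898 ± 218 to 1250 ± 200, a log2 fold change of −0.61 (SE 0.12, adjusted p = 0.00204 by limma). This lay just past 1.5-fold, so that the call was lost without WT library 1 (−0.57), WT library 2 (−0.58) or KI library 5 (−0.50), in libraries 1 to 3 alone (−0.58) and under the scalings named above.

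Cfap97d1 (chr11:101987056-101992264), which sperm need to keep their doublets intact along the tail, had 662, 652, 673, 363.1 and 401 in WT and 362.8, 309, 356, 249 and 144 in KI. WT libraries 4 and 5 lay close above KI libraries 1 to 3, KI library 5 was the lowest, and the groups did not overlap by the margin between WT library 4 and KI library 1. The mean fell from 550 ± 154 to 284 ± 90.5, with a log2 fold change of −0.97 (SE 0.24, adjusted p = 0.00912 by limma). The change was of like size in both sets of libraries, −0.95 in libraries 1 to 3 and −1.004 in libraries 4 and 5.

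Cfap299 fell just short of the fold threshold, with 1213, 1202, 966, 1123 and 1084 in WT and 717, 717, 742, 811 and 757 in KI. The KI libraries lay close together and all below the WT libraries, with a log2 fold change of −0.57 (SE 0.09, adjusted p = 0.000231 by limma). It passed the fold threshold without WT library 3 (−0.63) and without KI library 4 (−0.60), and fell to −0.34 with library totals and to −0.41 with spermatocyte markers, where the limma adjusted p was 0.0965. It and the following members were named after their values were seen.

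Cfap69, a central pair protein required for sperm tails, was lower in every KI library as well, from 5733 ± 482 to 4372 ± 252 (log2 fold change −0.39, limma adjusted p = 0.00455). Cfap57, which binds inner arms, and Cfap36 were lower at the adjusted p alone, with −0.29 (adjusted p = 0.0446) and −0.34 (adjusted p = 0.0344) by limma, and their groups overlapped. With the replicate block Cfap100 passed as well (−0.22, limma adjusted p = 0.0466, beside 0.111 without the block). This made 7 axonemal genes lower at the adjusted p alone, beside 2670 of all 15389 genes with the block. Cfap206 (chr4:34688574-34730206), a protein at the base of radial spokes and the highest CFAP gene per kilobase, had 14849, 15864, 13747, 13491 and 12875 in WT and 12646, 13142, 12315, 13544 and 11498 in KI. KI libraries 2 and 4 lay within the WT range and the other KI libraries below it, and the log2 fold change was −0.16 (SE 0.09, adjusted p = 0.242 by limma).

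By place in the axoneme, 1 of 7 CFAP genes of the doublet lumen was called, namely Cfap126, and the log2 fold changes of the other 6 ran from −0.18 for Cfap45 to 0.28 for Cfap77. The 9 central pair genes had 0 called by limma, edgeR and DESeq2, 1 at an unadjusted p under 0.05 (Cfap69), and values from −0.39 to 0.00. The 5 genes of inner arm tethers and the doublet surface had 0 called by the same 3 tools, 2 at an unadjusted p under 0.05 (Cfap57 and Cfap100), and values from −0.29 to 0.44, the highest being Cfap73 with 26.9 ± 7.62 in WT and 36.03 ± 4.16 in KI. Assembly factors among the CFAP genes, Cfap298 and Cfap300, had 0.04 and −0.16. Cfap157 with −0.10, Cfap45 and Cfap73 overlap genes on the opposite strand.

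The 2 sets of libraries were also read apart, although no axonemal gene differed between them at an adjusted p under 0.05 (limma interaction, 0 of 70, lowest adjusted p 0.0747 for Drc1). Libraries 1 to 3 of each genotype differ from libraries 4 and 5 in the mean read quality that the study lists. Ddx25 also differed, with 146, 194 and 161 in KI libraries 1 to 3 and 2.88 and 1.84 in KI libraries 4 and 5. At an unadjusted p under 0.05 the limma interaction took all 8 round spermatid markers, each with the lower value in libraries 4 and 5 (16.1% of all genes in either direction). In libraries 1 to 3 the KI against WT log2 fold change was negative for 55 of the 70 axonemal genes (7246 of all 15389), with a median of −0.17, and in libraries 4 and 5 for 22 of 70 (7389 of all 15389), with a median of 0.12. Scaling shifts the sign of such medians, to 0.13 in libraries 1 to 3 with library totals and 0.02 with spermatocyte markers. Relative to the all-gene median the 2 sets stood at −0.19 and 0.10. These differences can hardly change with the scaling, which shifts all genes of a library alike.

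All 9 inner arm heavy chains were negative in libraries 1 to 3 (median −0.19) and 0 of 9 were negative in libraries 4 and 5 (median 0.34). In libraries 1 to 3 the sign depended on the scaling, with 3 of 9 negative under library totals (median 0.11) and 5 of 9 under spermatocyte markers (median −0.00), and of the 70 genes 15 and 31 were negative. Over all genes tested the interaction called 0.247% (38 genes). At an unadjusted p under 0.05 it took 26 axonemal genes, all with the higher value in libraries 4 and 5, where it took 16.1% of all genes in either direction and 9.49% with the higher value in libraries 4 and 5, and edgeR and DESeq2 were not run on this term. The 4 called genes kept their direction in both sets, with 1.07 and 1.31 for Dnah5, 1.21 and 2.11 for Dnah11, and −0.58 and −0.66 for Cfap126.

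Within genotypes the heavy chains also varied more than the other members. The median coefficient of variation between replicates was 18.9% in WT and 36.2% in KI for the 11 heavy chain genes with a WT mean of at least 1000, 10.4% and 12.4% for the 56 members other than heavy chains, and 14.9% and 15.5% over all genes tested. All 11 abundant heavy chains were highest in KI library 5, and 8 of the 11 were lowest in WT library 3. Heavy chain genes took 0.405%, 0.371%, 0.261%, 0.419% and 0.488% of the reads in WT libraries 1 to 5 and 0.361%, 0.358%, 0.336%, 0.526% and 0.765% in KI libraries 1 to 5.

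Heavy chain transcripts are among the longest in the cell, so other long transcripts were read beside them. The median log2 deviation of the 11 abundant heavy chains from their mean over the 10 libraries was 0.12, 0.07, −0.48, 0.05 and 0.26 in WT and −0.32, −0.28, −0.41, 0.30 and 0.69 in KI. For 1370 other genes with at least 10 kilobases of exon the deviations were 0.02, −0.01, −0.09, −0.07 and 0.08 in WT and 0.00, −0.09, −0.10, 0.06 and 0.24 in KI. Both were highest in KI library 5, and they had opposite signs in WT libraries 2 and 4. In KI library 5 the 2808 genes with under 2 kilobases had −0.31. With the length trend of each library removed, which was added after the data were seen, Dnah8 had −0.07 and Dnah1 had 0.00. The part of transcript length or RNA quality in the spread of the heavy chains was not tested.

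**Figure D3:**
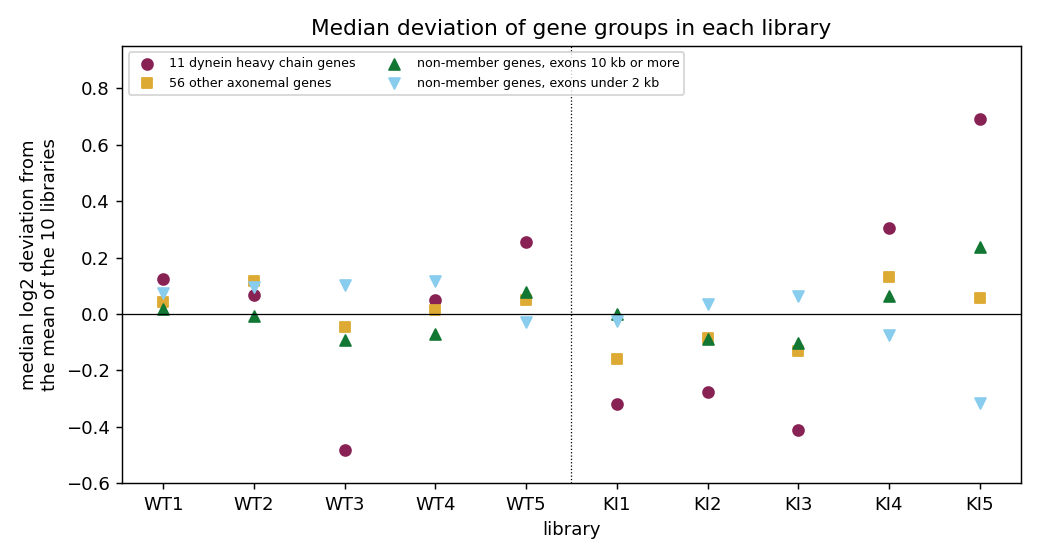
Median log2 deviation of gene groups from their mean over the 10 libraries (vertical axis) in each library (horizontal axis), for 11 abundant heavy chains, 56 other axonemal genes, and long and short genes outside the set. The heavy chains reach from −0.48 in WT library 3 to 0.69 in KI library 5.

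Transcripts of cell type markers were read beside these genes, and several sets of them differed between the genotypes. They measure RNA and are not counts of cells. All 9 elongating spermatid markers, of which Prm2 was the most abundant, fell, with a median log2 fold change of −2.50, and their summed normalized counts were 357622, 400917, 432556, 252932 and 239217 in WT and 63616, 71824, 70956, 54285 and 35880 in KI. The sum was lowest in KI library 5 and lower in libraries 4 and 5 than in 1 to 3 of the same genotype, and the same held for Cfap97d1 and Cfap126. The part of elongating spermatids in the lower level of these 2 genes was not tested. Cfap126 and Cfap97d1 fell by less than any of the 9 markers, whose log2 fold changes ran from −3.30 to −1.85.

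Among 8 round spermatid markers limma called 0 (3 lower at an unadjusted p under 0.05, 0 by edgeR and DESeq2, 1 down with the replicate block), with a median of −0.39. Their sum, led by Acrv1, was 13989, 13702, 12610, 12261 and 11478 in WT and 11952, 11921, 11974, 8238 and 6189 in KI, low in KI libraries 4 and 5, in which the heavy chains were high. The 9 spermatocyte markers, led by Syce1, had 0 called by limma, edgeR and DESeq2 (2 lower at an unadjusted p under 0.05), with sums of 19201, 17018, 15981, 13411 and 12706 in WT and 16557, 14429, 14647, 12793 and 11429 in KI, lower in KI at each library number while the groups overlapped. The 7 spermatogonial markers, led by Uchl1, had 0 called by the same tools (unadjusted p under 0.05, 1 lower and 1 higher), with sums of 1867 ± 243 and 1945 ± 152.

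Somatic cell markers were read beside Dnah5 and Dnah11. Of 7 Leydig cell markers limma called 4 up, edgeR 3, DESeq2 6 and limma with the replicate block 6, and their sum, led by Insl3, was 11902, 19504, 10875, 11735 and 15359 in WT and 22928, 24150, 27046, 15729 and 26702 in KI. Of 8 macrophage markers 5 rose by each of the 3 tools, with sums, led by Lyz2, of 495, 727, 623, 610 and 675 in WT and 859, 1060, 947, 887 and 1184 in KI. Among 5 endothelial markers Cdh5 and Vwf rose by limma, and their sum, led by Vwf, was 272, 265, 315, 303 and 365 in WT and 451, 456, 424, 607 and 805 in KI. The high sum of KI library 4 came from Vwf (457), while Cdh5 was lowest of the KI libraries there (60.6), and KI library 5 was the highest for both Vwf (595) and Cdh5 (108).

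Of 8 Sertoli cell markers, led by Cldn11, limma, edgeR and DESeq2 called 0 (1 higher at an unadjusted p under 0.05), with sums of 1700 ± 319 in WT and 1889 ± 298 in KI. Of 4 peritubular myoid markers tested limma called Acta2, the most abundant, and Des up (edgeR 1, DESeq2 2), and the sums of the 5 listed were 168 ± 31.4 and 207 ± 18.3. Among 5 red blood cell markers, led by Hba-a2, Hba-a1 rose and Alas2 fell (2 up with the replicate block), with sums of 528 ± 83.8 and 664 ± 182.

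Dnah5 and Dnah11 also belong to the genes of multiciliated epithelium, which lines the efferent ducts next to the testis. Of 7 markers of that epithelium 5 were in the deposited table, and of these Tppp3 and Ccno rose and Deup1, the most abundant and itself a gene of centriole amplification, fell, while Cdc20b and Trp73 were not called. Tppp3 had 144, 138, 141, 147 and 120 in WT and 419, 534, 449, 368 and 257 in KI, so that library 5 was the lowest of the KI libraries, where Dnah5 and Dnah11 were highest. The 5 markers summed to 3497 ± 254 in WT and 2568 ± 208 in KI, and most of this sum was Deup1, with 3252 ± 263 and 2023 ± 194. The median log2 fold change of the 5 was 0.26, with 2 of them negative. No marker gene in the deposited table was at 0 in all libraries (Mcidas and Gmnc of the last list were absent from it), and the part of somatic or multiciliated cells in the rise of the 2 heavy chains was not tested.

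Partners of these proteins outside the symbol rule were read from a list of axonemal genes, of which 65 were in the deposited table. Of them 6 fell and 0 rose by limma, edgeR and DESeq2 alike (unadjusted p under 0.05, 21 lower and 0 higher), beside 8.22% of all genes down and 18.4% lower at that p, with a median log2 fold change of −0.17, which was 0.06 when scaled to library totals. The number called down by limma was 5 with library totals, with the length trend removed and without KI library 5. Radial spoke partners accounted for 4 of the 6, with 4 of 11 called and a median of −0.47, while the Rsph genes themselves had 0 of 6 and a median of 0.04. These medians were −0.24 and 0.27 when scaled to library totals, and −0.31 and 0.20 when scaled to spermatocyte markers.

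Dydc2, which like Dydc1 carries a DPY30 domain, had 589, 642, 698, 287 and 335 in WT and 77.9, 83.4, 89.6, 57.7 and 29.4 in KI. All KI libraries lay far below WT, libraries 4 and 5 were low in both genotypes, and the log2 fold change was −2.91 (SE 0.30, adjusted p = 5.97e-06 by limma). Dydc1 had −1.04, Morn3 −0.96 and Ropn1 −0.85. Ropn1 binds protein kinase A anchors such as the spoke protein encoded by Rsph3a and Rsph3b, which had 0.25 and 0.39.

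Efcab1, of the docking sites of outer arms, had −2.88, and Spaca9, of the doublet lumen, −0.76. The falls of Dydc2 and Efcab1 lay within the range of the elongating spermatid markers (−3.30 to −1.85). Both genes, and likewise Morn3, Ropn1 and Spaca9, were also lower in libraries 4 and 5 of each genotype and lowest in KI library 5. Dydc1 did not have this order of libraries. Dydc1, Morn3, Ropn1 and Spaca9 fell by less than any of those markers. The part of elongating spermatids in the lower level of these partners was not tested. The remaining groups had 0 called by limma, edgeR and DESeq2, namely 9 assembly factors (0 at an unadjusted p under 0.05), 8 inner arm and ruler genes (3 lower), 7 regulatory complex genes (1 lower) and 8 central pair genes (2 lower).

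Promoters of the axonemal genes were compared for the letters of the X-box, the site read by RFX factors, which are known to switch on cilia genes. In RefSeq (GRCm38.p6) a window from 250 bases before to 50 after the start was found for 60 of the 70 genes. The 6 letters GTTGCC, an arm of the X-box, occurred on either strand in 24 of 67 windows of axonemal genes (35.8%). They occurred in 4111 of 32851 windows of all RefSeq genes (12.5%). That background is not limited to the genes tested here, so the gene sets compared are unlike. Both arms with 2 bases between them occurred in 1 axonemal gene, Cfap298, and in 30 of 27025 genes overall. The cAMP response element TGACGTCA occurred in the window of Dnah6 alone among the 60, and in 1.79% of all windows.

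GTTGCC was found in 3 of 5 Tekt genes, 3 of 4 Dnaaf genes, 4 of 8 inner arm heavy chains, 9 of 25 Cfap genes with a window, 1 of 2 Dnai, 1 of 3 Drc, 1 of 5 Rsph and 0 of 3 Dnal genes, and in 0 of 5 outer arm heavy chains. The windows of Dnah5, Dnah11, Cfap126 and Cfap97d1 did not hold it, and with 22 of 60 genes holding it nothing is read from 4 genes without it. In the stretches below the letters lie before the RefSeq start of the window, which for Tekt1 is inside the deposited gene span. They are written 5′ to 3′ on the strand of the gene, and show the shared element in genes of different roles, with GTTGCC or its reverse complement GGCAAC in capitals. They come from chr11:114727381-114727410 (plus strand, Dnaic2), chr11:72361880-72361909 (minus, Tekt1), chr4:126325693-126325722 (minus, Tekt2), chr16:44394768-44394797 (plus, Cfap44) and chr16:90935020-90935049 (minus, Cfap298, the stretch with 2 bases between both arms).
Dnaic2: ccagggttgctaGGCAACtggtaaactccg
Tekt1: tgcgtccgtccgGTTGCCatagagaccgca
Tekt2: gggcggttgctcGGCAACcagagccgcaaa
Cfap44: ggacgttgctatGGCAACcgcagtaaacgg
Cfap298: gtttgggttttgGTTGCCcgGGCAACagct
A match is a description of these letters and not of binding. All 3 copies of Dnah7 hold the element, in closely related sequence at chr1:53706967-53706996 (minus strand) for Dnah7a and chr1:46425287-46425316 (plus strand) for Dnah7c, and with other flanks at chr1:46066678-46066707 (plus strand) for Dnah7b.
Dnah7a: tcgctcctcacaGTTGCCtgccaccctctg
Dnah7c: tcactcctcagaGTTGCCttccaccctctg
Dnah7b: tacaggagcacaGTTGCCacccacccttaa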

How the data were processed

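The authors deposited 1 table with a signal per gene and library, which is the gene count divided by a size factor. Per the study's methods, and with the tools named in its sample records, reads were trimmed, aligned to mm10 with STAR and counted on RefSeq genes by an expectation-maximization model in Partek and compared with DESeq2. Tool versions are not given in the sources used here. All columns were assigned to a library (columns not assigned, 0). Dividing each library by its smallest step returned whole reads (tolerance 0.05) for 100% of values under 5000 reads. Size factors computed anew by the DESeq2 method came within 4.23e-06% of these steps, so the deposited scaling was taken to be that method's. Gene ends are the deposited stop minus 1, which equalled the RefSeq end for 62.7% of 15328 genes.

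The study's comparison of KI with WT over all 10 libraries was fitted with limma 3.58.1 (R 4.3.3, variance trend) on log2(normalized count + 1) for the 15389 genes that passed filterByExpr of edgeR on the recovered reads, and the script was tested on simulated data. As count tests on the recovered reads, edgeR 4.0.16 (quasi-likelihood, TMM) called 1293 genes down and 950 up, and DESeq2 1.42.0 called 1292 down and 1012 up. Levels per kilobase use exon lengths from GENCODE vM21. Alternatives were other scalings, filters, pseudocounts and tests, a replicate block, each library set alone and each library left out. The length trend and the interaction were added after seeing the data.

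Genes named by rule with all their values are the 4 called members and, in each family, the member with the highest WT level per kilobase. Rsph3b, Cfap299, Dydc2 and Tppp3 were given in full after their values were seen. The members and lists were chosen with earlier results of these data known. Libraries of the same number deviated together, with r of 0.306, 0.105, 0.280, 0.216 and 0.462 after genotype means were removed, and 8 of 10 libraries matched their own number best. The number was therefore used as a block in an alternative fit, while the main fit left it out. Whether a shared difference between the library sets gives these r values was not tested. Between replicates the chi-square per degree of freedom was 2.66 to 46.9, so none was a repeat of another library.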

Additional observations from a re-analysis of the deposited data

Results flagged for a closer look

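Among 70 groups of 5 libraries examined, 4 held a library whose gap to its nearest neighbour exceeded 0.71 of the range of the group, where chance gives about 1 in 20. Dnali1, the light intermediate chain, had 3467 normalized counts in KI library 4, with the next KI library at 2922. The summed level of the radial spoke partners was 23719 in KI library 5, with the next library at 31132. The summed level of the partners of the doublet lumen was 40063 in KI library 4, with the next at 34274. The summed level of the red blood cell markers was 981 in KI library 5, with the next at 635.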

How the results depend on the processing

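With the replicate block, 2 axonemal genes were called down and 2 up (2410 of all genes), and among the axonemal genes it added only Cfap100 at the adjusted p alone (0.0466). Beside the Leydig, round spermatid and red blood cell markers given in the text, it changed no other call at 1.5-fold in the lists. Scaling moved the split of calls over all genes from 42.7% up to 73.1% up with library totals and 58.4% with spermatocyte markers.

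With library totals, 1 axonemal gene was called down and 4 up, beside 789 down and 2145 up of all 15389 genes. Rsph3b at 0.61 and Cfap73 at 0.66 were gained, and Cfap126 was lost at −0.38. The median was 0.20, and 2 had KI below and 11 KI above WT in all libraries (5.80% and 19.1% of all genes). Cfap206 (0.0656), Dnaaf1 (0.23), Dnali1 (0.0737), Drc1 (0.12) and Tekt1 (0.0636) turned sign. With spermatocyte markers, 1 was called down (Cfap126 lost at −0.45) and 2 up, beside 854 down and 1200 up of all genes. The median was 0.13, 2 lay below and 2 above (5.95% and 6.60% of all genes), and Dnaaf1 (0.16), Dnali1 (0.00387) and Drc1 (0.0498) turned. Rsph1 turned with TMM (−0.00262), and Dnaaf1 with edgeR (0.0119) and DESeq2 (0.0165).

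In libraries 1 to 3 alone the median was −0.17, 22 of 70 lay below and 4 above (23.5% and 20.4% of all genes), and Dnaic1 (−0.0815), Dnah1 (−0.15), Dnah8 (−0.27) and Rsph1 (−0.0977) turned. Cfap126 (−0.58) fell short of 1.5-fold there and Cfap299 (−0.63) passed it. At the limma adjusted p alone, Drc1 (0.00344), Dnali1 (0.0198), Tekt1 (0.027) and Cfap206 (0.0458) were lower there, and none of them passed in libraries 4 and 5 alone. In libraries 4 and 5 alone the median was 0.12, 7 of 70 lay below and 28 above (26.8% and 28.3% of all genes), and Dnaaf1 (0.12) and Drc1 (0.27) turned. With the length trend removed, an alternative chosen after seeing the data, 1 was called down (Cfap126 lost at −0.56), beside 1178 of all 15252 genes. Dnah1 (−0.00473) and Dnah8 (−0.0732) turned there.

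Leaving out each library, the median ran from −0.10 to 0.01, and 1 to 3 axonemal genes were called down, beside 1130 to 1296 of all genes. Of the axonemal genes 4 to 8 lay below (11.4% to 12.7% of all genes) and 1 to 3 above (7.48% to 9.36%). Values ran from −0.24 to 0.14 for Dnah8, −0.13 to 0.14 for Dnah1, −0.0769 to 0.0438 for Rsph1 and −0.0996 to 0.0865 for Dnaaf1. The cause of these shifts was not tested. Dnah5, Dnah11 and Cfap97d1 were called under every alternative. TMM, both filters, both pseudocounts, edgeR, DESeq2 and libraries 4 and 5 alone kept the same 4 calls. Limits are the mixed cells, the low reads of Dnah11 (7 to 54 per library) and Dnah5 (27 to 168), the scaling, and copies or overlapping genes that may share reads.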
